A study of Mus musculus with 9 samples.

Results

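Gene body peaks were defined as RING1B peaks on chromosomes 1 to 19 that the deposited annotation places inside a gene, outside its 3′ untranslated region and outside the 1 kb downstream of its end, with a centre more than 1000 bp from the start of the gene's first exon. There were 485 such peaks of 2347 in the Eed+/+ list and 330 of 1810 in the Eed-/- list, or 815 of 4157 in all. They lay nearest to 454 and 301 genes respectively. Each list came from mouse embryonic stem cells (mESCs) of strain C57BL/6, either Eed wild type or Eed-/-, by chromatin immunoprecipitation with an antibody to RING1B and sequencing. The labels number 3 Eed-/- RING1B samples and 3 Eed+/+ input samples as replicates, whereas the methods describe them as sequencing lanes, and the Eed+/+ RING1B sample was 1 lane. CBX7 samples of the same series were not analysed here. Because each genotype was deposited as 1 list, there was no replicate error, no test between genotypes was possible, and the genotype cannot be told apart from the library or the cell line. All intervals are exact 95% intervals that cover counting error only.

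RING1B is the catalytic subunit of Polycomb repressive complex 1 (PRC1), which places ubiquitin on histone H2A. EED is a core subunit of PRC2, the complex that methylates lysine 27 of histone H3, and the CBX proteins of canonical PRC1 bind that mark. In embryonic stem cells, both complexes occupy CpG islands of silent developmental genes, mostly at promoters, so peaks centred within the transcribed part of a gene make up the smaller share of their targets.

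To show the sequence richest in CG within such peaks, a stretch of 150 bp is given for the most enriched peak of 6 classes. The classes are exon or intron centred, and in both lists, in Eed+/+ alone or in Eed-/- alone. Each stretch is the window of the peak with the most CG dinucleotides outside annotated untranslated regions. It is written 5′ to 3′ on the forward strand of mouse build mm9, with CG in capitals. Uncx, a homeobox gene (plus strand), had the top exon-centred peak found in both lists, and the window at chr5:140020038-140020187 is wholly coding and holds 22 CG.
Uncx: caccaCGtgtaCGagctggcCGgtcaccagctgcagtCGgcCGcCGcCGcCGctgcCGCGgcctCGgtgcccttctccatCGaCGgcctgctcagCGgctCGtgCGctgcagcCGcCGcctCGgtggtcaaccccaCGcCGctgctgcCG
Nkx2-1 (minus strand), which encodes a lung, thyroid and forebrain homeobox factor, had the top intron-centred peak found in both lists. Its window at chr12:57635573-57635722 covers 48 coding bases and otherwise intron, with 27 CG.
Nkx2-1: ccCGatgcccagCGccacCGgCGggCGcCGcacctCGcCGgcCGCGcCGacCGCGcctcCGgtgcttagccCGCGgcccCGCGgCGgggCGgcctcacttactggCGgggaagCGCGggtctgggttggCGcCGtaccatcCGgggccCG
Foxc2 (plus strand), a forkhead factor of mesoderm, had the top exon-centred peak found in Eed+/+ alone, and its window at chr8:123641245-123641394 is coding with 25 CG.
Foxc2: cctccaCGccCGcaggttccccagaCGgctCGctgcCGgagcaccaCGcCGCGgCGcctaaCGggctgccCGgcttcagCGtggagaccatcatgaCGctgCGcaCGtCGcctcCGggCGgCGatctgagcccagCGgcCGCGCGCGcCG
Tcfap2b (plus strand), an AP-2 family factor, had the top intron-centred peak found in Eed+/+ alone, and its window at chr1:19199963-19200112 is intronic with 19 CG.
Tcfap2b: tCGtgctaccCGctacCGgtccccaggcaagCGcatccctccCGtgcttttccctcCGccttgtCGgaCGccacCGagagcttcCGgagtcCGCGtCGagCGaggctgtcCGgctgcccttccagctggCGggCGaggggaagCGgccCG
Rimbp3 (plus strand) had the top exon-centred peak found in Eed-/- alone, and its window at chr16:17209246-17209395 is coding with 19 CG.
Rimbp3: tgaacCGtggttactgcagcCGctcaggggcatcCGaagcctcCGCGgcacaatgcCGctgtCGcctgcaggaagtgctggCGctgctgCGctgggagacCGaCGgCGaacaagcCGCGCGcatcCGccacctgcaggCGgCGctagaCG
Nlgn1 (minus strand), which encodes the synaptic adhesion protein neuroligin 1, had the top intron-centred peak found in Eed-/- alone. Its window at chr3:25437522-25437671 is intronic and, as the richest in CG of that peak, holds 2 CG.
Nlgn1: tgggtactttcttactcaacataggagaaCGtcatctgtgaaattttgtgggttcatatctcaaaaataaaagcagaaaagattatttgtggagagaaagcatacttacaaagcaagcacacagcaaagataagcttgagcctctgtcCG
The G+C content of these windows was 75.3% at Uncx, 81.3% at Nkx2-1, 76.0% at Foxc2, 71.3% at Tcfap2b and 69.3% at Rimbp3, against 38.0% at Nlgn1. Because the windows were picked for CG, these values do not describe the whole peaks. The whole peaks had 55.3%, 58.8%, 63.0%, 49.1% and 60.9% in that order, against 40.2% at Nlgn1.

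The distance in the lists runs from the peak centre, so a broad peak centred in the gene body can still hold the gene's start. This was the case for 184 of 485 Eed+/+ gene body peaks (37.9%, 95% interval 33.6 to 42.4) and for 89 of 330 Eed-/- peaks (27.0%, 22.3 to 32.1). The homeobox gene Uncx illustrates this class, with an Eed+/+ peak of 14438 bp centred 3183 bp into the gene. In a further 104 Eed+/+ and 84 Eed-/- peaks, the peak held only another annotated start, of a different transcript or gene in GENCODE M1, a set that includes partial transcripts. A start lay outside the peak but within 1000 bp in 33 and 39 peaks. No annotated start lay within 1000 bp of 164 Eed+/+ peaks (33.8%, 29.6 to 38.2) and 118 Eed-/- peaks (35.8%, 30.6 to 41.2), and these are called remote peaks here. Lying beyond the promoter therefore describes the centres of all these peaks, but not the whole extent of those that hold a start. Just inside the limit were Plxnd1 at 1001 bp, Kcnc1 at 1005 bp and Stox2 at 1008 bp in the Eed+/+ list and Pou4f1 at 1003 bp, Smad6 at 1004 bp and Tigd5 at 1014 bp in the Eed-/- list. Just outside it were Myb at 996 bp, Itpripl2 at 991 bp and Fgfr2 at 987 bp in Eed+/+, and Hoxc5 at 998 bp, En2 at 993 bp and Ppp1r9b at 991 bp in Eed-/-.

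Most gene body peaks were centred within 5 kb of the first exon start. The centres had a median distance to the first exon start of 2856 bp (Eed+/+) and 2764 bp (Eed-/-). Of the Eed+/+ peaks, 202 were centred at 1 to 2 kb, 135 at 2 to 5 kb, 62 at 5 to 10 kb, 57 at 10 to 50 kb and 29 beyond 50 kb. The corresponding Eed-/- numbers were 135, 91, 33, 40 and 31. Where the centre lay inside the GENCODE gene of the deposited name (432 Eed+/+ and 305 Eed-/- peaks), its median position was 35.5% and 36.5% of the gene's length from the start. It was in the first 50% of the gene for 269 (62.3%) and 197 (64.6%) of these. The definition leaves out peaks at 3′ ends, so this lean to the start is partly built in. Among the farthest Eed+/+ peaks were some at genes of neuronal cell surfaces and synapses. Opcml, a neuronal adhesion gene, had a peak centred 612325 bp from the start and Hnt (Ntm in GENCODE) had one at 551143 bp, and both of these peaks held another annotated start. Ctnnd2, which encodes delta-catenin, had a remote peak at 474491 bp, and Rims1, which encodes an active zone protein, had one at 272011 bp. The name in the lists is that of the nearest start and not always of the gene that contains the peak. A peak named Apaf1 in Eed+/+ was centred in Anks1b, and one named Rab3c in Eed-/- was centred in Pde4d.

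**Figure D1:**
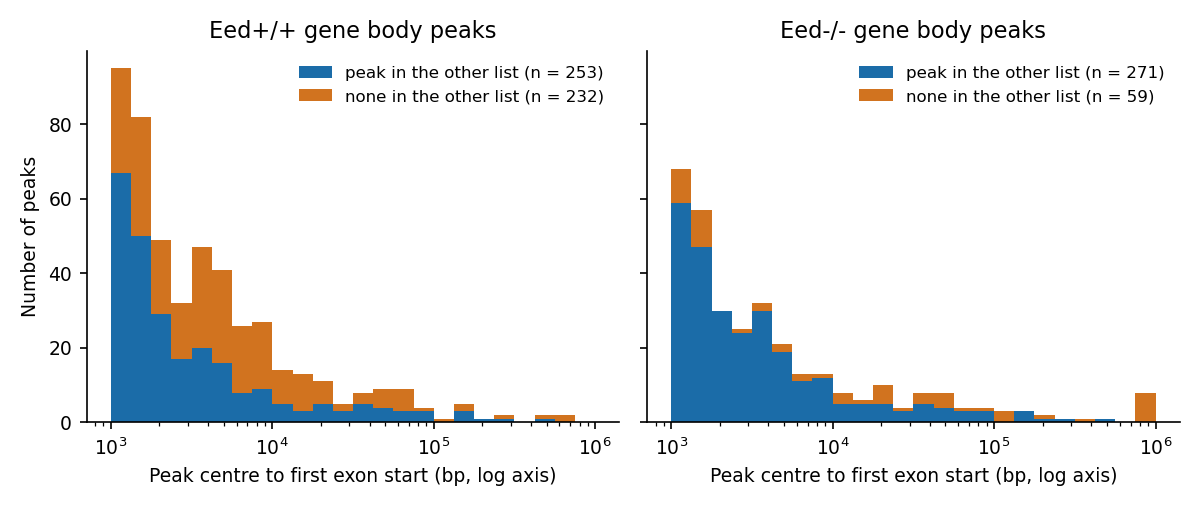
Number of gene body peaks (vertical axis) by distance from the peak centre to the first exon start in bp (horizontal log axis), for the Eed+/+ list (left) and the Eed-/- list (right). Colours separate peaks with and without a peak in the other list, and the isolated bar at the far right of the Eed-/- panel holds the 8 Nlgn1 peaks.

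Exon and intron sites occurred in similar proportions in the 2 genotypes. By the deposited annotation, the centre fell in an exon for 224 of 485 Eed+/+ peaks (46.2%, 41.7 to 50.7) and 142 of 330 Eed-/- peaks (43.0%, 37.6 to 48.6). It fell in an intron for 261 and 188. The 17 Eed+/+ and 5 Eed-/- peaks annotated with both terms were counted as exon sites. In GENCODE, an exon lay at the centre of 217 of 224 and 139 of 142 exon sites, but also of 24 of 261 and 21 of 188 intron sites. Of the exon sites, 212 in Eed+/+ and 133 in Eed-/- were in coding sequence. Being centred in an intron did not mean lying clear of exons, since 233 of 261 intron-centred Eed+/+ peaks and 154 of 188 Eed-/- peaks overlapped a GENCODE exon. Among remote peaks, exons were the more frequent site in Eed+/+, with 105 exon-centred and 59 intron-centred peaks, and the numbers were 63 and 55 in Eed-/-.

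Among Eed+/+ gene body peaks, Foxc2 had the highest fold enrichment over the background of the peak caller (70.4), with 1031 tags (969 to 1096) in an exon-centred peak. Next in enrichment were Uncx (64.3), Nkx2-1 (63.7), Six3os1 (60.9), the transcript antisense to the eye and forebrain gene Six3, Lhx4 (60.5), a LIM homeobox gene, and Nkx2-2 (59.9), a homeobox gene of the ventral neural tube. Of these 6, only Uncx, Foxc2 and Nkx2-2 were exon centred, and only Foxc2 and Nkx2-2 had no peak in the Eed-/- list. The remote peak with the highest enrichment was at Tbr1, a T-box factor of cortical neurons, with a fold enrichment of 52.6 at 7892 bp from the start. Other remote peaks included Pax3 (47.3), Npas3 (46.0), Pitx1 (43.4), the endoderm gene Sox17 (41.2) and the cardiac and endodermal gene Gata4 (37.9). Fold enrichments in the Eed-/- list reached 11.9 and are not on the Eed+/+ scale, because depth and background differ. The highest there, after 2 of the Nlgn1 peaks, were at Pou4f1 (11.1), a POU factor of sensory neurons, and Hoxc9 (10.4).

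A typical gene body peak was broader than other peaks. Widths had a median of 2944 bp (quartiles 2289 and 4197) in Eed+/+ and of 2568 bp in Eed-/-, beside 2610 bp and 2109 bp for the remaining peaks of chromosomes 1 to 19. Intron-centred peaks had median widths of 3210 bp (Eed+/+) and 2698 bp (Eed-/-), and exon-centred peaks of 2678 bp and 2422 bp. Peaks that hold their own start were the broadest class, with medians of 4246 bp and 3491 bp. A peak that holds a start more than 1000 bp from its centre must be broad, so this width is built into the class. Without it, gene body peaks had medians of 2450 bp in Eed+/+, below the 2610 bp of the remaining peaks, and 2154 bp in Eed-/-, close to 2109 bp. Remote peaks had medians of 2408 bp and 2150 bp. The broadest were at Six3os1 (18151 bp), Tbx2 (17357 bp), a T-box gene, and Pax7 (16640 bp), a paired box gene of muscle precursors, all in Eed+/+.

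The level is given as tags per kb of peak per 1000000 mapped tags of the library. Its median was 5.26 in Eed+/+ (quartiles 3.76 and 7.26) and 1.37 in Eed-/- (quartiles 1.20 and 1.60). Exon-centred peaks had medians of 5.63 and 1.54 and intron-centred peaks of 5.03 and 1.26. Gene body peaks had a median of 246 tags in both lists, although the Eed-/- library held 4.18 times as many mapped tags. The tag minimum of 100 per peak corresponds in Eed-/- to 23.9 tags at the Eed+/+ depth, and 42 of the 330 Eed-/- gene body peaks would have exceeded 100 tags at that depth. The lowest levels that could enter the lists thus differed between the genotypes.

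**Figure D2:**
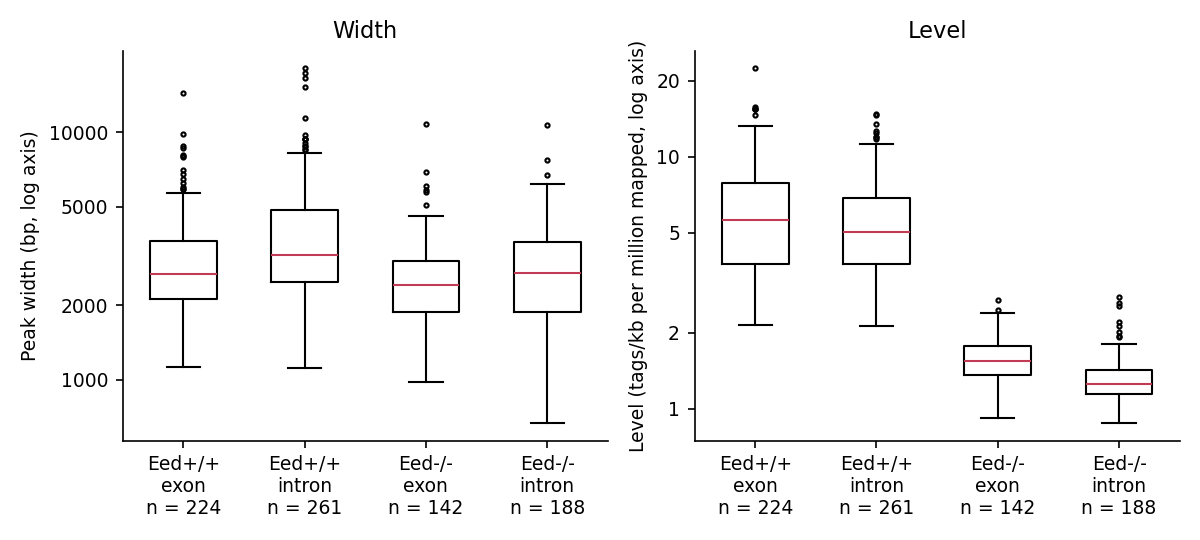
Peak width in bp (left) and level in tags per kb per 1000000 mapped tags (right), both on log axes, for exon-centred and intron-centred gene body peaks of each list. Boxes span the quartiles with the median as a line, whiskers reach the most distant peak within 1.5 box lengths, and points are peaks beyond them. The Eed-/- level boxes lie below the Eed+/+ boxes at both kinds of site.

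Overlap between the genotypes was then asked of each gene body peak, counting any peak of the other list that shared at least 1 bp. In the Eed+/+ list, 253 of 485 gene body peaks had an Eed-/- peak (52.2%, 47.6 to 56.7), beside 53.7% of all Eed+/+ peaks on these chromosomes. In the Eed-/- list, 271 of 330 had an Eed+/+ peak (82.1%, 77.6 to 86.1), beside 73.8% of all. The Eed+/+ share was thus near the background of the list and the Eed-/- share was above it, outside an interval that covers counting error only. Without the peaks that hold their own start, 191 of 241 Eed-/- peaks were shared (79.3%, 73.6 to 84.2), an interval that includes 73.8%. The Eed+/+ share was then 117 of 301 (38.9%, 33.3 to 44.6), below 53.7%. Eed-/- gene body peaks were also wider than the remaining Eed-/- peaks (medians of 2568 bp and 2109 bp). The part of width in the higher Eed-/- share was not tested. Of all gene body peaks, 232 Eed+/+ peaks and 59 Eed-/- peaks were in 1 list alone. These shares depended on the calling threshold. With both lists held to an FDR of 1%, which left 93 Eed-/- gene body peaks, 19.2% of Eed+/+ and 90.3% of Eed-/- gene body peaks were shared. Shares over all peaks at that FDR are not given here, so these values cannot be set against 53.7% and 73.8%. The median FDR over all Eed-/- peaks of these chromosomes was 1.47%.

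In Eed+/+, overlap differed with the position of annotated starts. Of peaks holding their own start, 136 of 184 had an Eed-/- peak (73.9%, 66.9 to 80.1). The share was 44 of 104 where the peak held another start only (42.3%, 32.7 to 52.4), 16 of 33 where a start lay within 1000 bp of the peak (48.5%, 30.8 to 66.5) and 57 of 164 for remote peaks (34.8%, 27.5 to 42.6). Peaks holding their own start were also the broadest and had the highest median level (6.70), while the other classes had similar medians of 4.61, 4.69 and 4.70 in the same order, and the part of width and level in the overlap was not tested. When the Eed+/+ gene body peaks were ranked by fold enrichment into 3 groups, 30.2%, 53.4% and 72.8% had an Eed-/- peak from the lowest to the highest group. The remote peaks with an Eed-/- counterpart, such as Tbr1, Sox17 and Prdm13, had a median of 310 tags, against 158 for those without one, such as Pax3, Npas3, Pitx1 and Gata4. In Eed-/-, the share was 80 of 89 for peaks holding their own start (89.9%, 81.7 to 95.3) and 90 of 118 for remote peaks (76.3%, 67.6 to 83.6), with overlapping intervals.

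Exon sites of the Eed-/- list were the more often shared, at 127 of 142 (89.4%, 83.2 to 94.0), against 144 of 188 intron sites (76.6%, 69.9 to 82.4). The 8 intron peaks at Nlgn1 contributed to this gap, and without them 144 of 180 intron sites were shared (73.4% to 85.6%), an interval that overlaps that of exon sites. In the Eed+/+ list the order was the other way, with 110 of 224 exon sites (49.1%, 42.4 to 55.9) and 143 of 261 intron sites (54.8%, 48.5 to 60.9), and the intervals overlapped.

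**Figure D3:**
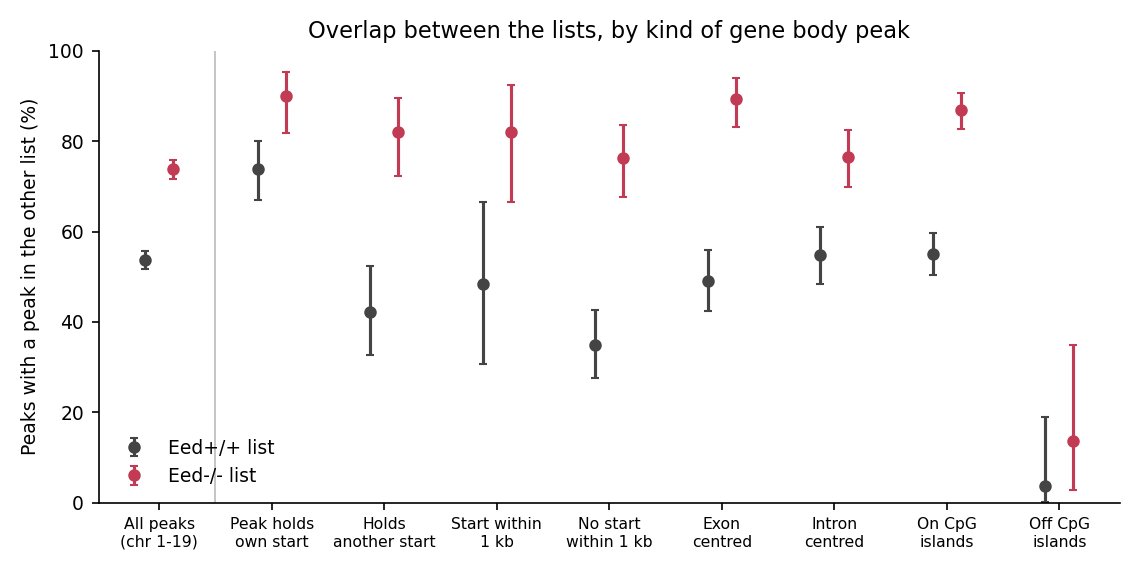
Percentage of peaks with a peak in the other list (vertical axis) for all peaks on chromosomes 1 to 19 (left of the line) and for kinds of gene body peak, in the Eed+/+ list (grey) and the Eed-/- list (red). Bars are exact 95% intervals. Eed+/+ points run from 73.9% for peaks that hold their own start to 34.8% for peaks with no start within 1 kb, and both lists are lowest off CpG islands.

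Shared peaks overlap by definition, so a similar place in the gene is largely built into the pairs and is not a result of its own. The Eed-/- partner, taken as the peak of longest overlap, was itself a gene body peak for 189 of the 253 shared Eed+/+ peaks (74.7%) and had its centre within 1000 bp of a start for 59 (23.3%). Where both were gene body peaks, 161 of 189 (85.2%) had the same kind of site, exon or intron. The Eed-/- partner was narrower at 195 of 253 sites (77.1%) and lay wholly inside the Eed+/+ peak at 140 (55.3%), with median widths of 2691 bp against 3495 bp. At Lhx4, the Eed+/+ peak was centred 2498 bp into the gene, and the Eed-/- partner was centred 130 bp upstream of the start. At Pax7, the single Eed+/+ peak of 16640 bp overlapped 2 Eed-/- gene body peaks, centred 1848 bp and 11021 bp from the start, and a 3rd Eed-/- peak 75739 bp from the start had no Eed+/+ counterpart. At Scarf2, which encodes a scavenger receptor family protein, all 3 Eed-/- gene body peaks overlapped Eed+/+ peaks.

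At every shared site the level was lower in Eed-/-. Over the 253 pairs, the median level was 6.64 in Eed+/+ and 1.35 in Eed-/-, and dividing the Eed-/- level by the Eed+/+ level gave a median of 0.208, with quartiles of 0.165 and 0.271 and a range of 0.0819 to 0.631. Exon and intron sites had similar ratios, with medians of 0.212 over 110 pairs and 0.206 over 143 pairs. The 57 remote pairs had a median of 0.220 and the 1240 shared peaks of all kinds 0.225. Nkx2-1 had the lowest ratio, with 1410 tags (1337 to 1486) and a level of 14.8 in Eed+/+ and 142 tags and a level of 1.21 in Eed-/-. Lbxcor1 (0.0836) and Nkx2-3 (0.103) were next. The highest ratios were at 2700081O15Rik (0.631), Mesdc1 (0.612), Pdgfb (0.547), which encodes a platelet-derived growth factor chain, and Celsr3 (0.501), an atypical cadherin of axon tracts. At Tbr1, the level was 10.9 in Eed+/+ and 1.92 in Eed-/-, with centres 7892 bp and 7409 bp from the start. At Kcns1, a potassium channel subunit gene, the remote peaks nearly coincided (2679 and 2684 bp) and the levels were 10.5 and 2.70. The scale rests on the mapped totals with no subtraction of input, and on tags per kb without that scaling the median ratio was 0.870.

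**Figure D4:**
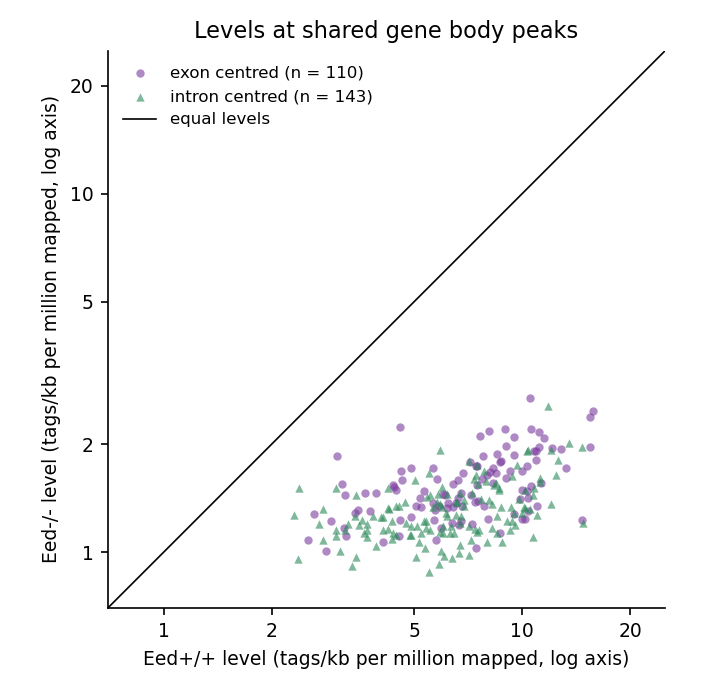
Level in Eed-/- (vertical log axis) against Eed+/+ (horizontal log axis), in tags per kb per 1000000 mapped tags, at the 253 Eed+/+ gene body peaks with an Eed-/- peak. Circles are exon-centred and triangles intron-centred, the line marks equal levels, and all points lie below it.

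CpG islands, found by sequence in the mm9 genome, were present in nearly all gene body peaks. In Eed+/+, 458 of 485 peaks overlapped an island (94.4%, 92.0 to 96.3), and in Eed-/- 308 of 330 did (93.3%, 90.1 to 95.8), beside 95.1% and 96.6% of all peaks on these chromosomes. All 142 exon-centred Eed-/- peaks were on islands, as were 218 of 224 in Eed+/+. Intron-centred peaks were on islands in 240 of 261 cases in Eed+/+ and 166 of 188 in Eed-/-. Peaks off islands were seldom found in the other list, which had none at 26 of 27 in Eed+/+ (96.3%, 81.0 to 99.9) and 19 of 22 in Eed-/- (86.4%, 65.1 to 97.1). Of peaks on islands, 252 of 458 and 268 of 308 were shared. Without Nlgn1, 3 of 14 Eed-/- peaks off islands were shared. The most enriched Eed+/+ peaks off islands were at Rspo3 (fold enrichment 37.3), a secreted enhancer of Wnt signalling, Nkx2-2 (29.3), Osr2 (27.4), and 2 adjoining peaks in Meis1 (23.3 and 22.5). The median level of the Eed+/+ peaks off islands was 4.39, against 5.38 on islands. Their median of 144 tags, against 258 on islands, was nearer to the tag minimum of 100. Eed-/- peaks off islands had a median of 145 tags, against 246 over all Eed-/- gene body peaks. Median widths off and on islands were 2160 bp and 3010 bp in Eed+/+, and 1600 bp and 2620 bp in Eed-/-. The part of tags and width in the low overlap off islands was not tested.

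Of the 232 peaks found in Eed+/+ alone, 63 (27.2%) carried the name of a gene that was nearest to an Eed-/- peak elsewhere, beside 24.8% of all 1067 peaks found in Eed+/+ alone on these chromosomes. An Eed+/+ peak centred within 1000 bp of the same gene's start accompanied 52 of the 232, and 24 of these 52 (46.2%) had such a promoter peak in Eed-/- too, beside 86 of 168 (51.2%) among all peaks centred outside promoters and found in Eed+/+ alone. Hoxb3 had 3 Eed+/+ gene body peaks, of 199, 396 and 454 tags, none with an Eed-/- counterpart. Lhx6, a LIM homeobox gene of interneurons, also had 3, and those of 519 and 105 tags had Eed-/- partners while the other did not. The tag minimum and the background of the Eed-/- library limit what could be called, so absence from the list was not taken as absence of RING1B.

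The 59 peaks found in Eed-/- alone comprised 15 exon-centred and 44 intron-centred peaks. Their median distance to the start was 13224 bp, against 2341 bp for shared Eed-/- peaks. This difference lay mainly in the intron-centred peaks, with 21833 bp against 2358 bp, or 12822 bp without the peaks at Nlgn1. The exon-centred peaks had medians of 3115 bp against 2257 bp. The gene was nearest to an Eed+/+ peak elsewhere for 19 of 59 (32.2%), beside 67 of all 466 peaks found in Eed-/- alone (14.4%). The 8 clustered peaks at Nlgn1 are all among these 19, so 1 locus makes up much of that count, and the difference was not tested. The exon-centred peaks were all on islands and of modest enrichment, led by Rimbp3 (7.05), Zfp36l2 (6.03), an RNA-binding protein gene, 6430527G18Rik (5.66), Nrtn (5.59), which encodes neurturin, Grin2c (5.37), an NMDA receptor subunit gene, and Trim71 (5.25), a ubiquitin ligase gene. Grin2c had an exon-centred peak in each list that did not overlap, at 16985 bp in Eed+/+ and 9204 bp in Eed-/-. Of the intron-centred peaks, 25 of 44 were on islands, including Zfp827 (6.83), Vegfa (5.94), an angiogenic growth factor gene, and Bcl11b (5.64). Those off islands included Crybg3 (8.74) and Dytn (7.40).

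Nlgn1 held 8 of the 44 intron-centred peaks found in Eed-/- alone (18.2%) and more gene body peaks than any other gene in either list. They lay in 40.1 kb at chr3:25416301-25456402 (mm9), between 775039 and 813949 bp from the annotated start. Each had between 103 and 265 tags and a level between 0.937 and 1.60, values within the range of other Eed-/- gene body peaks, whereas fold enrichments of 5.11 to 11.9 included the highest of the list. The G+C content was 38.0% to 41.7%, against a median of 59.9% over Eed-/- gene body peaks, and none overlapped a CpG island. The Eed+/+ list had no peak within 773344 bp. It had 2 Nlgn1 peaks at the start itself, of 195 tags (169 to 224) centred 340 bp inside and 148 tags (125 to 174) centred upstream at -1368 bp, and neither had an Eed-/- counterpart. At Nlgn1 the Eed+/+ list thus had peaks at the start alone and the Eed-/- list in the distal intron alone.

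**Figure D5:**
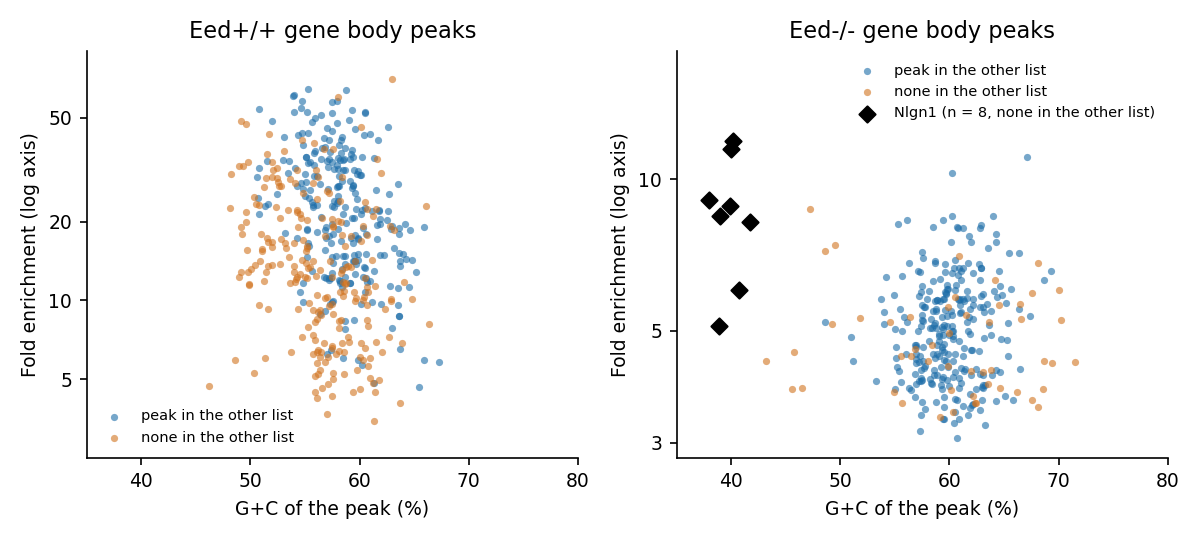
Fold enrichment (vertical log axis) against G+C content of the peak in % (horizontal axis) for gene body peaks of the Eed+/+ list (left) and the Eed-/- list (right), on separate vertical scales. Blue points have a peak in the other list and orange points have none. The 8 Nlgn1 peaks (black diamonds) lie between 38.0% and 41.7%, to the left of the other Eed-/- peaks.

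Gene families were counted with 19 lists of symbols, which together took in 211 of the 485 Eed+/+ gene body peaks and 137 of the 330 Eed-/- peaks. They also took in 852 of all 2307 Eed+/+ peaks and 573 of all 1781 Eed-/- peaks of chromosomes 1 to 19. Over all peaks of chromosomes 1 to 19, gene body peaks made up 485 of 2307 in Eed+/+ and 330 of 1781 (18.5%) in Eed-/-. Homeobox genes outside the Hox clusters had the most, with 71 of their 223 Eed+/+ peaks (31.8%) and 48 of their 143 Eed-/- peaks (33.6%), at 61 and 44 genes. Of these, 50 and 35 were intron centred, and 46 of the 48 Eed-/- peaks had an Eed+/+ peak, the exceptions being Satb1 and Six5. Over all gene body peaks, 53.8% in Eed+/+ and 57.0% in Eed-/- were intron centred and the others exon centred. A peak in the other list was present for 52.2% and 82.1%. All 9 Eed+/+ and all 7 Eed-/- peaks at Pax genes were intron centred, out of 21 and 16 Pax peaks. They lay at only 7 and 3 genes, so several are peaks of the same gene. Hox cluster genes had 10 gene body peaks of 70 in Eed+/+ (14.3%) and 5 of 28 in Eed-/-. Forkhead genes had 6 of 46 in Eed+/+, of which 5 were exon centred, and 5 of 29 in Eed-/-. The bHLH factors had 13 of 63 and 11 of 37, T-box factors 6 of 24 and 5 of 14, Sox factors 3 of 17 and 2 of 14, and the Gata, Zic, Gli, Sall, Prdm and Klf zinc finger genes 17 of 59 and 12 of 39.

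Signalling and cell surface genes gave smaller numbers. Hedgehog and Notch pathway genes had 6 of 12 Eed+/+ peaks and 5 of 13 Eed-/- peaks in gene bodies, among them the hedgehog ligand genes Shh (ratio 0.131), Dhh (0.140) and Ihh (0.131), whose Eed+/+ peaks held their own start. Wnt ligands, receptors and antagonists had 10 of 42 and 6 of 28, with Wnt7b (0.140), Fzd1 (0.196) and Wnt1 (0.149) in both lists and a peak at the receptor gene Fzd7 in Eed-/- alone. Bmp, Tgfb and Fgf genes had 7 of 38 and 4 of 32, and axon guidance genes 12 of 45 and 8 of 33. Cadherins and protocadherins had 13 of 28 Eed+/+ peaks in gene bodies (46.4%), 11 of them exon centred and 4 with an Eed-/- peak. They included clustered protocadherins, whose variable exons lie in tandem and whose peaks can be within 1 locus. Neurotransmitter receptor genes had 9 of 37 in Eed+/+, 8 exon centred and 2 shared, and 3 of 19 in Eed-/-. Beside these 2 families, 46.2% of all Eed+/+ gene body peaks were exon centred and 52.2% were shared. Ion channel genes had 7 of 57 and 3 of 43, matrix genes 7 of 35 and 3 of 27, and receptor kinase and phosphatase genes 2 of 17 in both. The list of Polycomb genes had 3 and 2, but all 3 Eed+/+ peaks and 1 of the Eed-/- peaks were at Rnf207 or Rnf220, which only share the start of a symbol with Rnf2, the gene of RING1B, and the other was at Sfmbt2. Germline genes had none of 3 in Eed+/+ and none of 12 in Eed-/-. These counts describe the lists, and the difference of any family from the rest was not tested.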

How the data were processed

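RING1B ChIP-seq peak lists were used, 1 per genotype, and CBX7 samples were not analysed. Per the labels and methods, the authors used bowtie for unique alignment to mm9, called peaks with MACS at an FDR below 2% and over 100 tags, and annotated them with CisGenome and custom scripts. The deposited attributes of other kinds hold raw tag counts, a fold enrichment ratio, an FDR in percent, location terms and the distance to the first exon. Versions of these tools, and which library MACS took as control, are not stated in the sources here. Flags that compare the lists, or the lists with histone marks, were not used. Mapped tags were 16814546 (Eed+/+) and 70343706 (Eed-/-), as the methods state.

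Peaks were joined by at least 1 bp of overlap in Python 3.11.15 with pandas 2.3.3, and the longest overlap gave the partner. Levels were tags per kb per 1000000 mapped tags. Shares have exact Clopper-Pearson and tags exact Poisson 95% intervals (scipy 1.17.1), and tags are not independent molecules. No test was run, since there is 1 list per genotype. Annotation came from GENCODE M1 on NCBIM37, the assembly of mm9. All 4157 peaks ended within its chromosomes, and for 719 of 815 members (88.2%) the start implied by the deposited distance lay within 100 bp of a GENCODE start. CpG islands were runs scored 17 per CG and -1 per other base, kept at 200 bp or more with G+C of at least 50% and an observed to expected CG ratio of at least 0.6 (26900 found), and the search was tested on simulated sequence.

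Named peaks were the 6 of highest fold enrichment in each of 6 classes (site by presence in both lists, Eed+/+ alone or Eed-/- alone), up to 4 per gene list, and the genes with most members. Peaks named for distance, width, ratio, islands or position at the limit, and further remote peaks, were chosen after their values were seen. The members and lists were chosen with earlier results of these data known. A few named peaks are not reported here. Alternatives varied the distance limit, FDR, overlap, chromosomes, start sites, scaling and island length.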

Additional observations from a re-analysis of the deposited data

How the results depend on the processing

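No paired analysis was possible because each genotype was deposited as 1 pooled list. The peaks holding their own start or lying at Nlgn1 were left out as alternatives chosen after seeing the data. Numbers are given as Eed+/+ then Eed-/-. With a distance above 2000 bp there were 283 and 195 members, and above 5000 bp 148 and 104. With no start of any transcript within 1000 bp there were 164 and 118, without peaks holding their own start 301 in Eed+/+, and where both lists were held to an FDR of 1% 93 in Eed-/-. The share of exon sites was 52.0% and 32.7% above 5000 bp, 64.0% and 53.4% with no start within 1000 bp, and 52.2% in Eed+/+ without peaks holding their own start. The share with a peak in the other list was 42.8% in Eed+/+ above 2000 bp, 37.8% and 64.4% above 5000 bp, 19.2% and 90.3% with the 1% FDR, 34.8% and 76.3% with no start within 1000 bp, 38.9% in Eed+/+ without peaks holding their own start, and 41.0% and 58.5% when 50% of both peaks had to overlap. The share on CpG islands was 91.9% and 89.7% above 2000 bp, 82.7% in Eed-/- above 5000 bp, 90.2% and 87.3% with no start within 1000 bp, 91.7% in Eed+/+ without peaks holding their own start, and 77.7% and 85.2% for islands of at least 500 bp. The median width was 2679 and 2351 bp above 2000 bp, 2652 and 2204 bp above 5000 bp, 2784 bp in Eed-/- with the 1% FDR, 2408 and 2150 bp with no start within 1000 bp, and 2450 and 2154 bp without peaks holding their own start. The median level was 4.58 in Eed+/+ above 5000 bp, 1.50 in Eed-/- with the 1% FDR, 4.70 and 1.46 with no start within 1000 bp, and 4.69 in Eed+/+ without peaks holding their own start. The median level ratio was 0.870 on raw tags per kb, 0.222 from fold enrichments (whose scales differ between the lists), 0.182 where the Eed-/- peak would exceed 100 tags at the Eed+/+ depth, 0.220 with no start within 1000 bp, and 0.230 without peaks holding their own start. Raw tags per kb leave the 4.18 times difference in depth in the ratio, which by construction gives that value, and the cause of the other shifts was not tested. In each of these alternatives the shared percentage was higher for Eed-/- than for Eed+/+ peaks. Over all peaks at the main settings, 1240 of 2307 Eed+/+ and 1315 of 1781 Eed-/- peaks were shared. Similar counts in a smaller list give a higher percentage, so this direction is partly set by list size and is not a result of its own. Depth limits the lists through the minimum of 100 tags.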

Other observations

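On the X chromosome, which the definition leaves out, 7 Eed+/+ and 3 Eed-/- peaks met the same conditions, and the Y chromosome had 0 in both lists. All were on CpG islands. The Eed+/+ peaks at Irs4 (fold enrichment 42.5), Pcdh19 (31.4), Arhgap6 (26.9), Bcor (25.4) and Zfp36l3 (16.2) had no Eed-/- counterpart. Nyx had an exon-centred peak in both lists, with 116 tags in Eed+/+ and 148 in Eed-/-. In Eed-/-, Chst7 had an exon-centred peak that overlapped an Eed+/+ peak, and Mid1 had an intron-centred peak that did not.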
